A study of Mus musculus with 6 samples.

Results

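The AP-1 transcription factors are a family of basic leucine zipper proteins that bind DNA as dimers of Jun proteins with Fos, ATF or BATF proteins. Their genes belong to the early response of cells to growth factors, cytokines and stress. Signals that run from Ras through the MAP kinases raise their transcription and phosphorylate the proteins, and the dimers bind the TPA response element (TRE) or the cAMP response element (CRE). The 10 genes described here were chosen by name: Fos, Fosb, Fosl1 and Fosl2 of the Fos family, Jun, Junb and Jund of the Jun family, Atf3, Batf and Batf3. They are 10 of 26182 mouse genes with a curated RefSeq transcript. The data around them are regions of acetylation of histone H3 at lysine 27 (H3K27ac), a mark of active promoters and enhancers. Around the 10 genes lay 163 of the 70818 regions that were obtained when overlapping regions of the 3 treatments were merged.

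H3K27ac ChIPseq was carried out on A9 cells, metastatic clones derived from the TC1 line. TC1 cells are lung cells of a female C57Bl/6 mouse that were transformed with the E6 and E7 genes of HPV16 and an activated H-ras, so that cells of every treatment carried an activated Ras upstream of AP-1. A9 cells were cultured for 48 h with 1% DMSO as the vehicle, with 0.00167 umol curcuphenol or with 5.832 fmol IFN-γ. From each culture 130000 live cells entered the preparation. The paper describes curcuphenol as a compound of plants, culinary spices among them, and of certain marine sponges, and reports that the racemic compound was made by synthesis. Both agents were dissolved in DMSO as the vehicle, so the cells of all groups were exposed to it. Their doses were labelled as amounts and not as concentrations. Each treatment had 1 H3K27ac library and 1 input library, without replicates. Differences between treatments are therefore differences between libraries of a single cell line, have no replicate check and were given no p-value.

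The deposited lists held 47899 regions for DMSO, 48763 for curcuphenol and 55622 for IFN-γ, which covered 69.81, 70.28 and 81.07 Mb of the genome. The IFN-γ list was 1.16-fold longer than the DMSO list and the curcuphenol list 1.01-fold. The lists give start and end positions only, so the depth behind a region and the level of acetylation are unknown, and the lengths within called regions were described in their place. Intervals of shares cover counting error only. Promoters of 6 of 7 mesenchymal markers held a region in each list. Those of epithelial markers held one in 1, 0 and 1 of 7 with DMSO, curcuphenol and IFN-γ. Over the gene and its upstream 1 kb, Epcam, Krt18, Krt19, Nkx2-1 and Sftpc, markers of lung and other epithelia, had no region in any list. The other epithelial markers did: Cdh1 held 4437, 5711 and 7679 bp in the same order, outside its promoter, and Krt8 487, 0 and 501 bp. Leukocyte markers held a promoter region in 1 of 8 in every list and endothelial markers in 0 of 4. Outside their promoters the endothelial genes Pecam1, Cdh5 and Tek held regions in every list, and Kdr held none.

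The sequences below are the 250 bases before the transcription start site of 5 of the genes, taken from the RefSeq promoter table of GRCm38.p6, which is the mm10 assembly. They belong to genes whose regions are described below, and a relation of the letters to acetylation was not tested. The Fos, Fosl2 and Jun promoters were acetylated under every treatment. The region at the Atf3 promoter was wider with both agents, and that of Batf3 was called with IFN-γ only. Each sequence reads 5′ to 3′ on the strand of its gene. Capitals mark matches to a motif searched on both strands: a TATA box (TATAAA) in Fos, an interferon-stimulated response element (ISRE) on the reverse strand in Fosl2, the TRE variant of the Jun promoter (TGACATCA) in Jun and a gamma-activated site (GAS, TTCNNNGAA) in Batf3.
Fos, chr12:85473640-85473889, plus strand: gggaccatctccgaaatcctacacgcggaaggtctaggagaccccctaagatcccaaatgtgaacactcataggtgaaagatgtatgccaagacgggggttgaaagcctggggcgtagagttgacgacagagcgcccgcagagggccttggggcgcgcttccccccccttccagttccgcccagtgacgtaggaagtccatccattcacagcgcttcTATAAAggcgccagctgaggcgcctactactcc
Fosl2, chr5:32136222-32136471, plus strand: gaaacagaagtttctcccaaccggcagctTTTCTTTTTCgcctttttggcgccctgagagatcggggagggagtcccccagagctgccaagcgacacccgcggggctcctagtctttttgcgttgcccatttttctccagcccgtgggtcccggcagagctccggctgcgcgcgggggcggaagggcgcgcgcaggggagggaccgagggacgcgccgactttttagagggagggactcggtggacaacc
Jun, chr4:95052223-95052472, minus strand: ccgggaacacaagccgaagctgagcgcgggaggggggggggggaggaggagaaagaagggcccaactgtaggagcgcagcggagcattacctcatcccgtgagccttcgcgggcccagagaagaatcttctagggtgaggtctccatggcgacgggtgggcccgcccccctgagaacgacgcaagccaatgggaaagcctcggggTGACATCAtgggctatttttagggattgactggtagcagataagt
Atf3, chr1:191183334-191183583, minus strand: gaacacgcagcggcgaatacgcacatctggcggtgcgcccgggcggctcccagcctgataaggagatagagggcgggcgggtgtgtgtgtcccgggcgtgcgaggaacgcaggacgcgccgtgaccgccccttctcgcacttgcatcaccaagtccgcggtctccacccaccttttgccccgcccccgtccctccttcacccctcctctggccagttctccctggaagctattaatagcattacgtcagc
Batf3, chr1:191098164-191098413, plus strand: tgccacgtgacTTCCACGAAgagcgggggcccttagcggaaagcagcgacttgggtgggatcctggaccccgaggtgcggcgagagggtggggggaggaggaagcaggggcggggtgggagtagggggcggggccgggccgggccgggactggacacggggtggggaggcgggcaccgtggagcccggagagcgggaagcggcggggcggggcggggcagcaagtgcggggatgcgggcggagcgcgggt

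The table held a promoter for 9 of the 10 genes, all but Fosl1. Positions are counted back from the start site, which is 0. The TATA box of Fos lay from 33 to 28 bases before the start and the TRE variant of Jun from 45 to 38 bases before it. The ISRE letters of Fosl2 lay from 221 to 212 bases before the start. The GAS letters of Batf3 lay from 239 to 231 bases before the start, at chr1:191098175-191098183. Of all 32851 promoters in the table, measured over 300 bases that run to 50 bases past the start, 8.3% held a GAS, 3.44% an ISRE, 3.62% the TRE variant and 13.6% a TATA box. Of the 9 promoters, 1 held a GAS, 1 an ISRE, 1 the TRE variant and 2 the TATA box letters. Besides Fos these letters were found at Junb, from the start itself to 5 bases past it. The canonical TRE (TGAGTCA, in 5.2% of all promoters), the CRE (TGACGTCA, in 1.79%) and the CArG box (in 1.63%) matched in 0 of the 9 promoters, which says only that these letters are not in this window. A match describes the letters and not binding. The 9 promoters had a median GC content of 64.7% against 52.7% for all promoters, and a median of 21 CpG against 7.

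Most AP-1 promoters were acetylated whatever the treatment. A promoter region, one that overlapped the 1000 bp before or the 100 bp after a start site, was called at 8 of 10 genes under DMSO, at 8 under curcuphenol and at 9 under IFN-γ. Of all 26182 genes, 45.3% had one under DMSO, 44.3% under curcuphenol and 46.3% under IFN-γ. The genes without one were Batf, in every list, and Batf3, with DMSO and with curcuphenol. The region at each acetylated promoter spanned the start site, except at Jund with curcuphenol and at Batf3 with IFN-γ, as the plot of promoter regions shows.

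**Figure D1:**
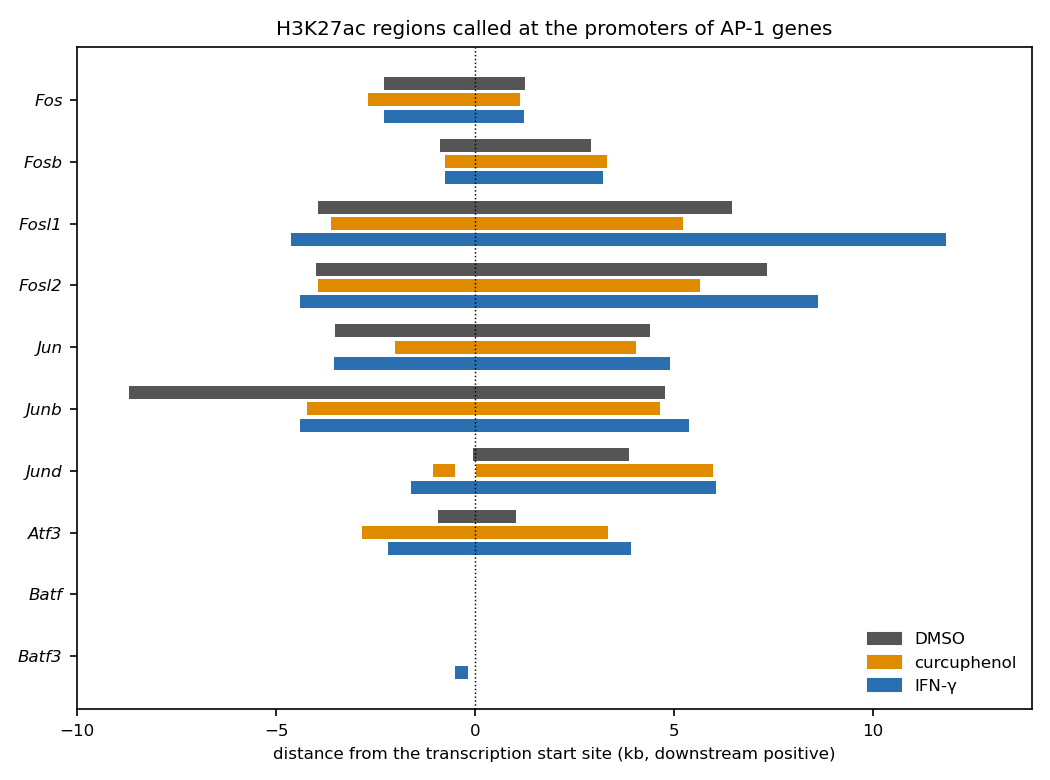
H3K27ac regions at the promoters of the 10 AP-1 genes, drawn as bars along the distance from the transcription start site in kb, in 1 colour per treatment (1 library each). The Atf3 bar is longer with curcuphenol (6183 bp) and IFN-γ (6114 bp) than with DMSO (1966 bp), the Junb bar is longest with DMSO (13466 bp), and Batf3 has a bar with IFN-γ only (337 bp).

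Fos encodes c-Fos, the prototype of the immediate early genes (chr12:85473890-85477274, plus strand, GRCm38.p6 as for all genes below). The region at its promoter was 3546 bp wide under DMSO, 3819 bp under curcuphenol and 3499 bp under IFN-γ. Of the gene and its upstream 1 kb, a window of 4385 bp, 2251, 2140 and 2223 bp lay within regions in the same order, which gave ratios to DMSO of 0.951 for curcuphenol and 0.988 for IFN-γ. The promoter of Fos thus had nearly the same region in the 3 lists. Fosb encodes FosB and a shorter splice form, ΔFosB (chr7:19302696-19310045, minus strand). Its promoter region was 3818 bp wide under DMSO, 4062 bp under curcuphenol and 3963 bp under IFN-γ, and this region made up all of the acetylated length of the gene.

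Fosl1 encodes Fra-1, a Fos protein without the C-terminal transactivation domain of c-Fos that is abundant in many invasive tumour cells (chr19:5447698-5455938, plus strand). Its promoter region was 10411 bp wide under DMSO, 8831 bp under curcuphenol and 16466 bp under IFN-γ. Only 0.296%, 0.291% and 0.117% of the regions in these lists were wider. Of the gene with its upstream 1 kb, 9241 bp, regions held 8102 bp under DMSO, 6218 bp under curcuphenol and 9241 bp under IFN-γ. Regions thus covered the whole of this window with IFN-γ and 67.3% of it with curcuphenol.

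Fosl2 encodes Fra-2 and extends over 21369 bp (chr5:32136472-32157840, plus strand). Its promoter region was 11337 bp wide under DMSO, 9605 bp under curcuphenol and 13015 bp under IFN-γ, and 0.223%, 0.207% and 0.209% of the regions of the lists were wider. Over the gene and its upstream 1 kb, 12553 bp lay within regions under DMSO, 9093 bp under curcuphenol and 17004 bp under IFN-γ. The covered length was thus 1.35-fold that of DMSO with IFN-γ and 0.724-fold with curcuphenol, and that of curcuphenol was 0.535-fold that of IFN-γ. Regions of the gene body and just past its end differed between the lists. A region 19.2 kb downstream of the start, in an exon near the end of the gene, was 688 bp with DMSO and 2295 bp with IFN-γ and was not called with curcuphenol. The same held 22.0 kb downstream, with 703 bp for DMSO and 998 bp for IFN-γ, and 23.5 kb downstream, with 985 and 1198 bp. An intronic region of 873 bp, 14.6 kb downstream of the start, was called with IFN-γ only.

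Jun encodes c-Jun, the main partner of the Fos proteins (chr4:95049036-95052222, minus strand). The gene has a single exon and its window of 4187 bp lay within 1 region under every treatment, so that no difference could show in it. The region itself was 7907 bp wide under DMSO, 6065 bp under curcuphenol and 8456 bp under IFN-γ. On the upstream side it reached 3519 bp from the start under DMSO, 2022 bp under curcuphenol and 3552 bp under IFN-γ, and the curcuphenol region was the shortest. Junb encodes JunB, which opposes c-Jun at some promoters (chr8:84976909-84978748, minus strand). Its window of 2840 bp was likewise covered in full in each list. The region at Junb was 13466 bp wide under DMSO, 8896 bp under curcuphenol and 9781 bp under IFN-γ, and only 0.132% of the DMSO regions were wider. It began 8690 bp upstream of the start under DMSO, 4235 bp under curcuphenol and 4409 bp under IFN-γ, so the region was longest in the vehicle.

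With the agents, the upstream stretch of this Junb region was called apart from the promoter region. Counted over the merged region of 17876 bp, 16064 bp were covered under DMSO, 13471 bp under curcuphenol and 17474 bp under IFN-γ. With IFN-γ the summed length was therefore longer than with DMSO although the promoter region was shorter. Jund encodes JunD, the Jun protein that is made steadily in most cells (chr8:70697739-70700616, plus strand). Its promoter region was 3932 bp wide with DMSO and began 50 bp upstream of the start. With curcuphenol there were a region of 544 bp upstream and one of 5963 bp, with the annotated start in the gap between them. With IFN-γ a single region of 7653 bp spanned the start. Of the Jund window of 3878 bp, 2928 bp lay within regions under DMSO, 3344 bp under curcuphenol and 3878 bp under IFN-γ, which was its whole length.

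Atf3 encodes a stress-induced factor that binds as a homodimer or with Jun proteins (chr1:191170296-191183333, minus strand). Its promoter region was 1966 bp wide under DMSO, 6183 bp under curcuphenol and 6114 bp under IFN-γ. In the DMSO list 24.2% of the regions were wider, against 1.03% in the curcuphenol list and 2.01% in the IFN-γ list. The region at Atf3 was thus ordinary in width in the vehicle and among the widest with either agent. Over the gene and its upstream 1 kb, 14038 bp, regions covered 1966 bp under DMSO, 6458 bp under curcuphenol and 4931 bp under IFN-γ. This was 3.28-fold the DMSO value with curcuphenol and 2.51-fold with IFN-γ. A region of 1373 bp at the 3′ end of the gene, 12.5 kb downstream of the start, was called with curcuphenol only.

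Batf and Batf3 encode small Jun partners without a transactivation domain of their own, best known from lymphocytes and from the dendritic cells that cross-present antigen. Batf (chr12:85686720-85709087, plus strand) had no promoter region in any list, and its gene held 815 bp of region under DMSO, 1798 bp under curcuphenol and 1182 bp under IFN-γ out of a window of 23368 bp. These lay in intronic regions 11.6 and 18.9 kb downstream of the start that were present in all 3 lists. The ratio to DMSO was 2.21 with curcuphenol and 1.45 with IFN-γ. Batf3 (chr1:191098414-191108943, plus strand) held no region with DMSO or curcuphenol. With IFN-γ a region of 337 bp was called from 514 to 178 bp upstream of its start, at chr1:191097900-191098236. It holds the GAS letters printed above. This region was narrow, since 89.9% of the IFN-γ regions were wider, and with values of 0 in the other lists no ratio was formed.

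Counted over the family, the acetylated length of the gene and its upstream 1 kb was at least 1.5-fold higher with IFN-γ than with DMSO at 2 of 10 genes, Atf3 and Batf3, against 21.2% of all genes with a region in either list. It was at least 1.5-fold lower at 0 of 10, against 9.31%. With curcuphenol it was at least 1.5-fold higher than with DMSO at 2 of 9 genes, Atf3 and Batf, against 22.1% of all genes, and lower at 0, against 21.2%. Directly compared, curcuphenol was at least 1.5-fold above IFN-γ at 1 of 10 genes, Batf, against 17.2% of all genes, and below it at 2, Fosl2 and Batf3, against 26.3%. Batf lay close to the limit, with a ratio of 1.45 for IFN-γ to DMSO and of 1.52 for curcuphenol to IFN-γ. The counts of higher genes were near those of all genes. The comparisons with DMSO share the same DMSO library.

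The median ratio to DMSO over genes covered in both lists was 1.14 for the AP-1 genes and 1.08 for all genes with IFN-γ, and 1 and 0.963 with curcuphenol. Jun and Junb enter these medians at a ratio of 1 because their windows were full. With IFN-γ 6 of 9 genes were above DMSO and 1 below, where of all 13731 genes covered in both lists 8464 were above and 4983 below. After division by the total length of each list, which shifts every IFN-γ log2 ratio by -0.22 and every curcuphenol log2 ratio by -0.01, 4 were above and 5 below, and the ones above were Fosl2, Jund, Atf3 and Batf. With curcuphenol 4 of 9 genes were above DMSO, Fosb, Jund, Atf3 and Batf, and 3 below. Of all 13319 genes covered in both of these lists 5840 were above and 7247 below. The division left 4 above and 5 below. With either agent the 5 below included Jun and Junb, whose full windows put them below 1 through the list total alone. The percent of a window that was covered depends on the length of the window too, which ran from 2840 bp at Junb to 23368 bp at Batf. Genes of unlike length are therefore not directly comparable on it. With DMSO Jun and Junb stood at 100 percent, Fosl1 at 87.7, Jund at 75.5, Fosl2 at 56.1 and Fos at 51.3. Fosb stood at 45.7, Atf3 at 14, Batf at 3.49 and Batf3 at 0. With curcuphenol Atf3 stood at 46 and Fosb at 48.6, and with IFN-γ at 35.1 and 47.5.

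**Figure D2:**
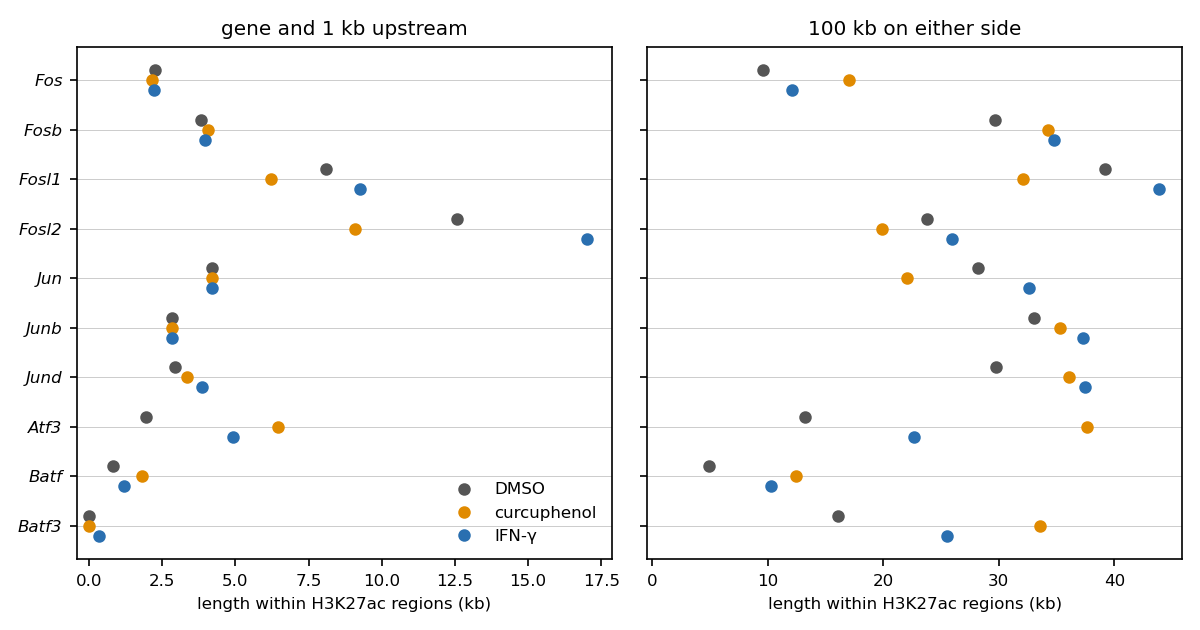
Length in kb within H3K27ac regions for each AP-1 gene in the gene and its upstream 1 kb (left) and in 100 kb on either side (right), with 1 point per library. On the left Fosl2 runs from 9093 bp with curcuphenol to 17004 bp with IFN-γ, and on the right Atf3 runs from 13270 bp with DMSO to 37639 bp with curcuphenol.

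The flanks, 100 kb on either side of a gene without the gene and its upstream 1 kb, were then examined for regions that may belong to enhancers. Within 100 kb lie other genes too, and the nearest gene of a region need not be the one that it serves. Regions near the Fos family differed in direction between genes. For Fos, 9578 bp lay within regions under DMSO, 17012 bp under curcuphenol and 12136 bp under IFN-γ, ratios to DMSO of 1.78 and 1.27. Of the 13 merged regions near Fos, 6 were called with curcuphenol only, 55.7, 37.6 and 23.9 kb upstream and 67.8, 73.9 and 96.2 kb downstream. The upstream ones measured 729, 1446 and 1994 bp and the downstream ones 349, 324 and 430 bp, a sum of 5272 bp. The acetylated neighbourhood of Fos was thus longest with curcuphenol while its promoter region was nearly the same in the 3 lists.

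For Fosb the flanks held 29655 bp under DMSO, 34252 bp under curcuphenol and 34754 bp under IFN-γ, and 11 of its 15 merged regions were called in all 3 lists. For Fosl1 they held 39167, 32118 and 43909 bp in the same order, the longest sum of the family in the DMSO and IFN-γ lists. For Fosl2 they held 23823, 19887 and 25978 bp. Both Fosl genes therefore had their shortest acetylated flanks with curcuphenol, at 0.82-fold and 0.835-fold of DMSO, as they had over the gene itself. Near Fosl2, 4 of 20 merged regions were present with DMSO and IFN-γ and missing with curcuphenol: those named above and 1 that lay 57.6 kb upstream, of 782 bp with DMSO and 458 bp with IFN-γ.

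For Jun the flanks held 28192 bp under DMSO, 22050 bp under curcuphenol and 32649 bp under IFN-γ. Much of this was a block of acetylation 49.0 kb upstream of Jun, in which 14136 bp were covered under DMSO, 10205 bp under curcuphenol and 16650 bp under IFN-γ, where it was a single stretch. Jun was thus, like the Fosl genes, shortest with curcuphenol, at 0.782-fold of DMSO. The flanks of Junb held 33065, 35279 and 37281 bp and those of Jund 29762, 36112 and 37419 bp, with ratios to DMSO from 1.07 to 1.26. Of the 20 merged regions near Jund, 14 were called in all 3 lists. The exon region 50.7 kb upstream of Jund, 1044 bp, was called with curcuphenol only. A region 66.9 kb upstream, nearest to Gdf15, a stress-induced cytokine, measured 797 bp under DMSO, 2309 bp under curcuphenol and 440 bp under IFN-γ and was chosen after its values were seen.

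**Figure D3:**
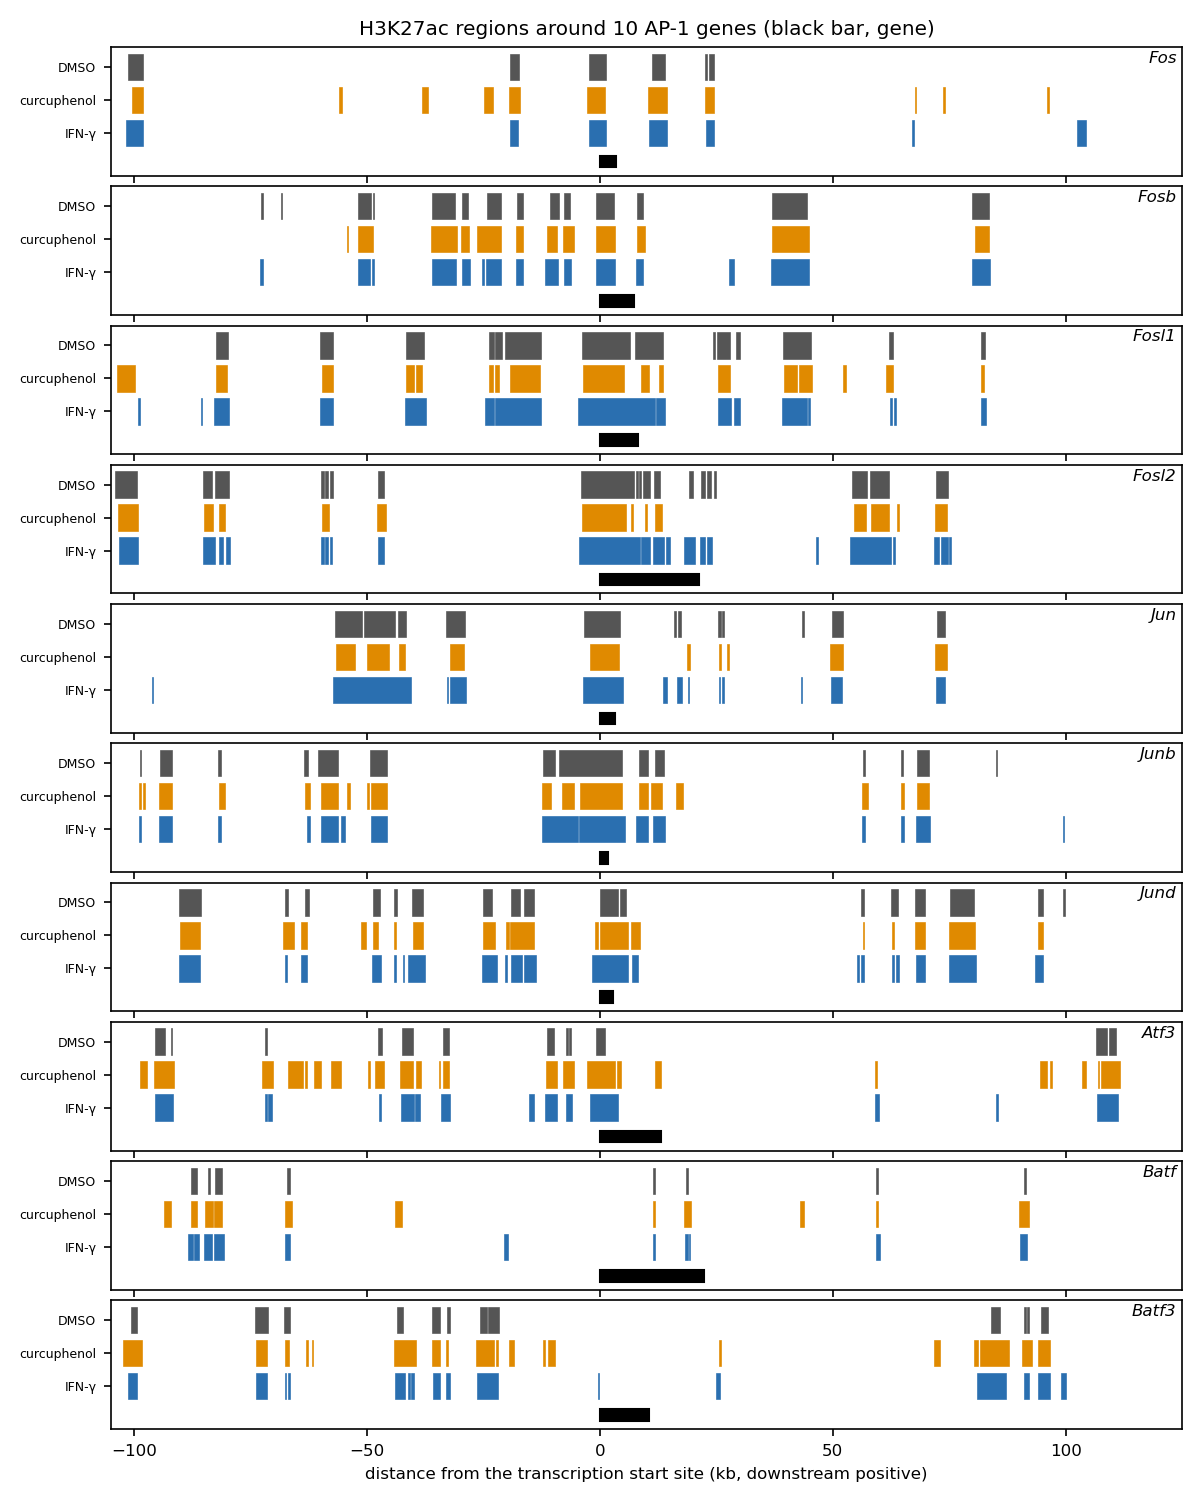
H3K27ac regions around each AP-1 gene, drawn to scale as blocks along the distance from the transcription start site in kb, with a row for each treatment (1 library each) and the gene as a black bar. Blocks of all 3 rows coincide at 92 of 163 merged regions, and a run of 5 curcuphenol blocks upstream of Atf3 has no counterpart.

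Of the 10 genes, Atf3 had the largest ratio to DMSO with curcuphenol in flanks of 100 kb, while with IFN-γ, and in flanks of 50 kb, the ratio of Batf was larger. The flanks of Atf3 held 13270 bp under DMSO, 37639 bp under curcuphenol and 22628 bp under IFN-γ, 2.84-fold and 1.71-fold of DMSO, and curcuphenol was 1.66-fold above IFN-γ. Most of it lay upstream, with 9415 bp for DMSO, 29659 bp for curcuphenol and 17037 bp for IFN-γ. Limited to regions whose nearest start site was that of Atf3, the flanks held 2290 bp under DMSO, 6432 bp under curcuphenol and 5863 bp under IFN-γ. The curcuphenol and IFN-γ lengths were then close to each other. Of the 24 merged regions near Atf3, 11 were called with curcuphenol only, 2 with IFN-γ only and 0 with DMSO only. A run of 5 curcuphenol regions lay 49.6, 56.7, 60.7, 63.1 and 65.3 kb upstream, with no region of the other lists among them. They measured 582, 2175, 1513, 543 and 3074 bp, 7887 bp in all. The start site nearest to each of these 5 was that of D730003I15Rik and not that of Atf3, from 8472 to 24226 bp away. This gene was named after its values were seen. Regions present in all 3 lists were also longer with curcuphenol in places. The one 71.3 kb upstream measured 328 bp under DMSO, 2407 bp under curcuphenol and 1189 bp under IFN-γ, and the one 47.3 kb upstream measured 655, 1831 and 364 bp. Not all did, since the region 33.1 kb upstream measured 1339, 1222 and 1965 bp. A region of 1005 bp, 14.7 kb upstream, was called with IFN-γ only.

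**Figure D4:**
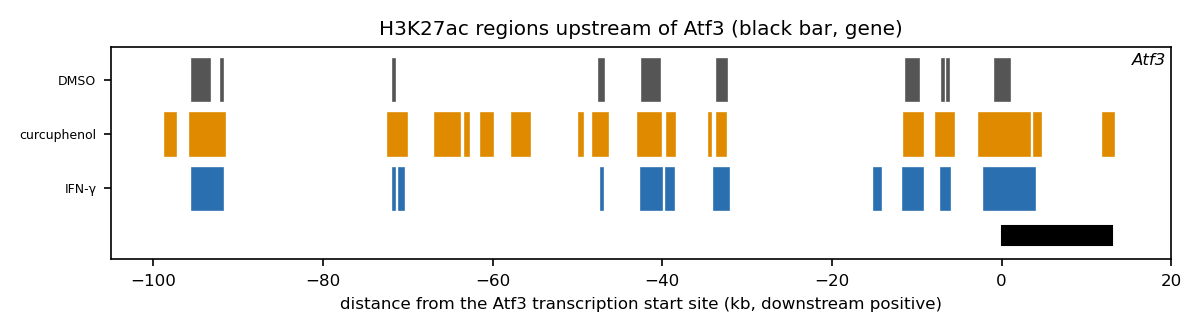
H3K27ac regions from 100 kb upstream of the Atf3 start site to the end of the gene, drawn to scale along the distance from the start in kb, with a row for each treatment (1 library each) and the gene as a black bar. The curcuphenol row alone has blocks 49.6, 56.7, 60.7, 63.1 and 65.3 kb upstream.

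The flanks of Batf held 4966 bp under DMSO, 12483 bp under curcuphenol and 10303 bp under IFN-γ, ratios of 2.51 and 2.07. Most of this length lay in regions whose nearest start site was that of Jdp2, Flvcr2 or Gm40478, genes named after their values were seen. Limited to regions nearest to Batf, the flanks held 0 bp under DMSO, 1465 bp under curcuphenol and 901 bp under IFN-γ, so no ratio was formed. Regions of 1412 and 1465 bp, 92.9 and 43.2 kb upstream, and one of 915 bp, 43.3 kb downstream, were called with curcuphenol only. A region of 901 bp, 20.2 kb upstream, was called with IFN-γ only, and 8 of the 12 merged regions near Batf were in all 3 lists. For Batf3 the flanks held 16128 bp under DMSO, 33585 bp under curcuphenol and 25560 bp under IFN-γ, ratios of 2.08 and 1.58. Batf3 lies 61.4 kb from Atf3, and 11 merged regions fell in the windows of both genes. Without the part that begins at Atf3 its flanks held 11872, 20695 and 14766 bp, ratios of 1.74 and 1.24. Atf3 and Batf3 are therefore not independent, and the IFN-γ value of Batf3 passed the 1.5-fold limit only with the Atf3 side.

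Over the family, the flanks were at least 1.5-fold longer with IFN-γ than with DMSO at 3 of 10 genes, Atf3, Batf and Batf3, against 21.6% of all genes with a region in either list, and shorter at 0, against 6.43%. With curcuphenol they were at least 1.5-fold longer at 4 of 10, Fos, Atf3, Batf and Batf3, against 23.9%, and shorter at 0, against 12.7%. Directly compared, curcuphenol was at least 1.5-fold above IFN-γ at 1 of 10, Atf3, against 15.4%, and below it at 0, against 22.1%. The median ratio to DMSO was 1.21 with IFN-γ for the AP-1 genes and 1.21 for all genes. With curcuphenol it was 1.18 for the AP-1 genes and 1.05 for all genes. All 10 genes had longer flanks with IFN-γ than with DMSO, but only 6 after division by the total length of the lists. Most genes did so too: of all 21675 genes covered in both of these lists, 16675 were longer and 4995 shorter with IFN-γ, before any division. With curcuphenol 7 of the 10 were longer and 3 shorter with and without this division. Of all 21623 genes covered in both lists, 11849 were longer and 9770 shorter with curcuphenol, before any division. Summed over the genes, where the regions that Atf3 and Batf3 share enter under both, the flanks held 227606 bp under DMSO, 280417 bp under curcuphenol and 282617 bp under IFN-γ, 1.23-fold and 1.24-fold of DMSO. Without Atf3 and Batf3 these ratios were 1.06 and 1.18.

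Of the 163 merged regions near the AP-1 genes, 92 were called in all 3 lists, 56.4% (95% Clopper-Pearson interval, 48.5 to 64.2), against 39% of all 70818 merged regions. Regions called in a single list numbered 31 for curcuphenol, 20 for IFN-γ and 7 for DMSO, which were 19%, 12.3% and 4.29% of those near the genes against 18.2%, 16% and 9.85% of all. Regions of DMSO and IFN-γ without curcuphenol numbered 8, 4.91% against 10.4%. Those of curcuphenol and IFN-γ without DMSO numbered 5, 3.07% against 4.93%. Regions of DMSO and curcuphenol without IFN-γ numbered 0 of 163, against 1.64% of all. A count of 0 allows up to 3 counts, a share of 1.84%, and the upper Clopper-Pearson bound was 2.24%. Regions common to the treatments made up more of the AP-1 neighbourhoods than of all merged regions, and curcuphenol-only regions a like share. Width was not matched: regions near the genes had a median of 1557 bp against 1074 bp for all. Over all merged regions, those in all 3 lists had a median of 2242 bp, and curcuphenol-only, IFN-γ-only and DMSO-only regions 595, 450 and 384 bp. Neighbourhoods of other genes were not compared, so the higher share cannot be called a trait of AP-1 genes. With a reciprocal overlap of 50% instead, 29% of the regions near the genes were in all 3 lists against 18.8% of all, an alternative that was computed over all regions after the data were seen. Of the 31 curcuphenol-only regions, 13 lay near Atf3 or Batf3 and 6 near Fos. Without Atf3 and Batf3, 58.8% of 131 merged regions were called in all 3 lists and 13.7% with curcuphenol only. Of the 163 regions, the centres of 75 lay between genes, 54 in introns, 24 in promoters and 10 in exons.

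**Figure D5:**
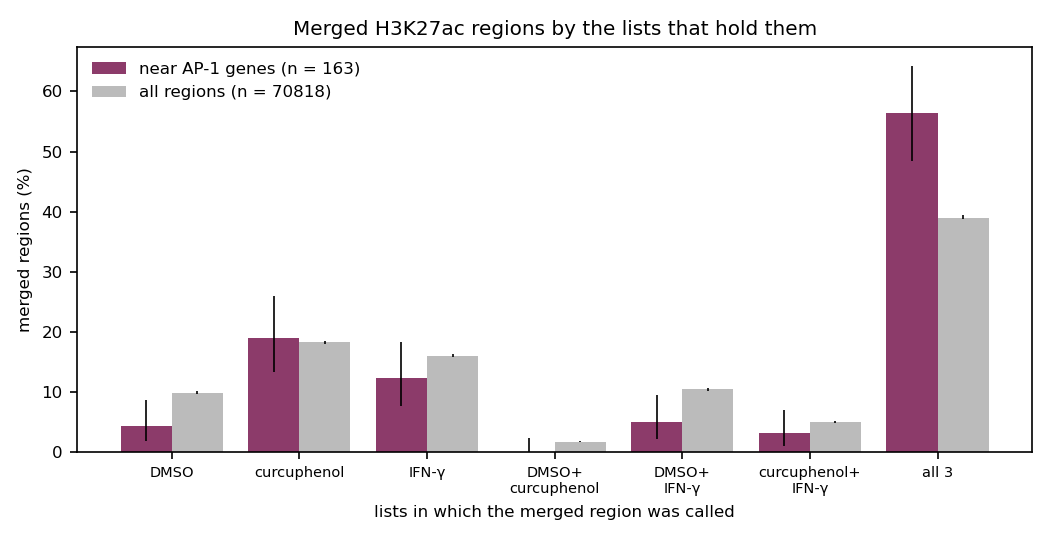
Percent of merged H3K27ac regions by the treatments in which they were called, for the 163 near AP-1 genes and for all 70818, with bars for the shares and lines for 95% Clopper-Pearson intervals. Regions in all 3 lists make up 56.4% near the genes and 39% of all, and curcuphenol-only regions 19% and 18.2%.

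Regions near the genes were searched for the TRE, the letters that AP-1 dimers bind. The windows of 101 bases below carry a TRE, TGAGTCA or its reverse complement TGACTCA, in capitals at their centre, and lie in regions that were called under 1 treatment. Those of Atf3, Fos and Batf were called with curcuphenol only and that of Fosl2, in an intron, with IFN-γ only. The windows are a selection. Curcuphenol-only regions near Jun, Junb and Jund held a TRE too, as did 1 that lay 64.0 kb downstream of Fosl2. Further such sites near Atf3, Fos and Batf are not printed. They were read from the GRCm38.p6 genome, 5′ to 3′ on the plus strand.
Atf3, 55.7 kb upstream, chr1:191239019-191239119, plus strand: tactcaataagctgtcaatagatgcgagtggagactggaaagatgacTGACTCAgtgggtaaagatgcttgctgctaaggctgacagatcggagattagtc
Atf3, 56.5 kb upstream, chr1:191239813-191239913, plus strand: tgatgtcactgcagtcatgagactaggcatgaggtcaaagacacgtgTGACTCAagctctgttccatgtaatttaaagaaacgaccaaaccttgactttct
Atf3, 98.0 kb upstream, chr1:191281323-191281423, plus strand: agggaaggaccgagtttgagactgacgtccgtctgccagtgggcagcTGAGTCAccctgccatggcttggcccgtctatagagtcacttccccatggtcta
Fos, 24.5 kb upstream, chr12:85449377-85449477, plus strand: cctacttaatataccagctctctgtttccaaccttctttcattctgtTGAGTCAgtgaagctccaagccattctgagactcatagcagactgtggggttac
Batf, 43.4 kb downstream, chr12:85730036-85730136, plus strand: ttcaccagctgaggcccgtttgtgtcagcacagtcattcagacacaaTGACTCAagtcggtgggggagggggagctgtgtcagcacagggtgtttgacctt
Fosl2, 14.5 kb downstream, chr5:32150890-32150990, plus strand: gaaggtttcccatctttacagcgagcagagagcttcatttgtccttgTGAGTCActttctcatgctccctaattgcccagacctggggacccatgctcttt

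At least 1 TRE was found in 73 of the 163 regions near the AP-1 genes, 44.8% (95% Clopper-Pearson interval, 37 to 52.8), against 35.6% of all merged regions. Regions near the genes were wider, with a median of 1557 bp against 1074 bp, and longer regions hold more letters. Within 500 bp around the centre the shares were 20.9% near the genes and 21.3% of all, so no difference was detectable at equal length. Of the regions near the genes that were called in all 3 lists, 58 of 92 held a TRE, 63% against 56.3% of all such regions. Of the curcuphenol-only regions 11 of 31 did, 35.5% (19.2 to 54.6), against 24% of all curcuphenol-only regions, and this share lay within the interval. Of the IFN-γ-only regions 1 of 20 did, 5% (0.127 to 24.9), against 11.9%. Near Atf3, 3 of the curcuphenol-only regions upstream or downstream held a TRE, as the windows printed above show for those upstream. A CRE was found in 5 of the 163 regions, 3.07% against 1.98% of all, among them the curcuphenol-only region 55.7 kb upstream of Fos and the region at Jund. A GAS was found in 72 of them, 44.2% against 34.3%, and an ISRE in 30, 18.4% against 20.4%. For the GAS too the share at the centre, 13.5%, was near that of all regions, 15.5%.

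Other genes of the AP-1 pathway were read from 5 lists, with the length within regions over the gene and its upstream 1 kb and the same limit of 1.5-fold, to be set against the shares of all genes given above. Of 22 dimer partners and related factors, 20 had a promoter region under DMSO, 20 under curcuphenol and 21 under IFN-γ. With IFN-γ 2 of 21 were longer and 0 shorter than with DMSO, and with curcuphenol 2 of 20 were longer and 3 shorter. Atf1, a factor that binds the CRE, held 7625 bp under DMSO, 17138 bp under curcuphenol and 9885 bp under IFN-γ. Of 20 kinases from Ras to the MAP kinases, 19, 16 and 16 had a promoter region, 4 were longer and 2 shorter with IFN-γ, and 3 were longer and 3 shorter with curcuphenol. Mapk9, which encodes JNK2, a kinase of c-Jun, held 2124, 3466 and 4393 bp. Map2k2, which encodes MEK2, held 1767, 5452 and 2305 bp. Braf held 2458, 769 and 1261 bp, Map2k4 6088, 2201 and 7795 bp and Map3k1 3345, 1635 and 2018 bp, each shortest with curcuphenol. The kinases thus had no common direction with curcuphenol.

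Serum response factor, its ternary complex partners and other immediate early genes, 16 in all, had a promoter region in each list. With IFN-γ 1 was longer and 0 shorter, and with curcuphenol 1 was longer and 4 shorter. Egr1, Ier2, Ier3, Klf6 and Zfp36, named after their values were seen, had the same length in all 3 lists. A window covered in full, as at Jun and Junb, would give this, so the low counts are no measure of stable acetylation. Elk1, a ternary complex factor that MAP kinases phosphorylate, held 1888 bp under DMSO, 545 bp under curcuphenol and 1273 bp under IFN-γ, and Nr4a1, an immediate early nuclear receptor, 3677, 1566 and 2660 bp. Of 16 MAP kinase phosphatases and other negative regulators, 15, 14 and 15 had a promoter region, with 3 of 15 longer and 3 shorter for IFN-γ and 1 longer and 3 shorter for curcuphenol. Spred1, an inhibitor of Ras signalling, held 20957, 4933 and 10055 bp, so that both agents were below DMSO. Rasa1, a Ras GTPase-activating protein, held 6131, 2499 and 3208 bp. Spry1, another inhibitor of the pathway, held 2267 bp with DMSO, 0 with curcuphenol and 1229 bp with IFN-γ.

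Of 26 target genes of AP-1, 20 had a promoter region under DMSO, 19 under curcuphenol and 22 under IFN-γ. With IFN-γ 6 of 23 were longer and 2 shorter than with DMSO, and with curcuphenol 3 of 22 were longer and 6 shorter. Lif, a cytokine of the interleukin-6 family, held 6475 bp under DMSO, 6460 bp under curcuphenol and 14329 bp under IFN-γ. Hmox1, which encodes heme oxygenase 1 and responds to oxidative stress, held 1588, 3972 and 1581 bp. The growth factor gene Fgf2 held 18579, 5842 and 18890 bp, the interleukin-33 receptor gene Il1rl1 13906, 5423 and 15443 bp and the chemokine gene Ccl2 2876, 1219 and 2876 bp. For these last genes the curcuphenol value alone stood apart from DMSO. The target list as a whole had a median log2 ratio to DMSO of 0.07 with IFN-γ and -0.21 with curcuphenol, where all genes had 0.11 and -0.06.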

How the data were processed

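A9 cells under 3 treatments were profiled by H3K27ac ChIPseq, with 1 H3K27ac and 1 input library each. Per the submitters' processing notes and the paper's methods, reads were aligned to mm10 with BWA (0.7.17 in the notes, an earlier version in the methods) and regions were called with MACS2 2.1.2, each H3K27ac library having the input of its own treatment as control. Duplicate and mapping filters are not given in the sources used here. The values deposited by the authors are start and end positions of regions. They hold no score or count, so that width depends on depth and threshold in an unknown way.

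The 10 genes and the gene lists were chosen with earlier results of these data known. Genes were taken from curated RefSeq transcripts of GRCm38.p6. Promoters ran from 1000 bp before to 100 bp after a start site, flanks 100 kb from the gene. Covered bp of a gene and its upstream 1000 bp were called higher or lower at 1.5-fold among genes covered in either list. Of the gene lists, genes at least 2-fold from DMSO and with at least 500 bp under DMSO were named in alphabetical order, at most 4 per list and treatment. Lists overlapping by at least 1 bp were merged. Motifs were matched by letters on both strands. Overlap code was tested on simulated data. Python 3.11.15, numpy 2.4.6, pandas 2.3.3, scipy 1.17.1 and matplotlib 3.10.9 were used. Alternatives were other windows, a width minimum, joined regions, scaling by list total and stricter overlap. The input libraries have no list of their own and entered as controls of the calls.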

Additional observations from a re-analysis of the deposited data

How the results depend on the processing

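No paired analysis was possible because each treatment had 1 H3K27ac library and no test was made, and for the same reason no replicate could be left out. Of the counts and shares over the family, 57 values under the alternatives moved little and 11 moved; of the ratios of single genes, 120 moved little and 9 moved. Of these 129 ratios 12 crossed 1, 6 of them after division by the total of the list, and the others were Fos, Jund and Junb values with other windows. With the centre of a region required in the promoter, the genes with a promoter region numbered 2 under DMSO, 2 under curcuphenol and 2 under IFN-γ in place of 8, 8 and 9, since the centre of a wide region lies off the start. Over the gene body alone, 1 gene in place of 2 was higher with IFN-γ, and the Atf3 ratios were 3.81 with IFN-γ and 5.28 with curcuphenol. With regions of at least 500 bp, 8 genes in place of 9 had a promoter region with IFN-γ, since the Batf3 region of 337 bp was lost. The count of genes higher with IFN-γ stayed at 2, with Batf in place of Batf3. The Batf regions with DMSO, 331 and 484 bp, fell below the minimum and 1 of 527 bp with IFN-γ did not. With regions under 1000 bp apart joined, 1 gene in place of 0 was lower with curcuphenol. With flanks divided by the total of the list, 1 gene in place of 3 was higher with IFN-γ. With flanks limited to regions nearest to the gene, 2 genes in place of 0 were lower with IFN-γ and 3 in place of 0 with curcuphenol, on few bp for Jund (1004, 46 and 0 bp with DMSO, curcuphenol and IFN-γ), and Junb stood at 0.653 with IFN-γ and 0.57 with curcuphenol, from 1.13 and 1.07, and Jund at 0.0458 with curcuphenol, from 1.21. Under the same limit the Atf3 ratio with IFN-γ was 2.56, from 1.71. Batf and Batf3 then had 0 bp with DMSO, so no ratio was formed for them. With flanks of 50 kb the Batf ratios were 3.96 with IFN-γ and 6.21 with curcuphenol. With a reciprocal overlap of 50%, 29% of regions near the genes were in all 3 lists in place of 56.4%, and 52.8% in 1 list in place of 35.6%. The share of regions with a TRE was 20.9% in place of 44.8% over 500 bp around the centre. The cause was not tested. Depth, unknown here, limits which regions could be called, and 1 library per treatment gives no estimate of the spread.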

Other observations

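Over all merged regions, those near the AP-1 genes included, the share of regions with a TRE differed between the classes of regions called under 1 treatment. Within 500 bp around the centre, a TRE lay at 20.4% of 12915 curcuphenol-only regions (95% Clopper-Pearson interval, 19.7 to 21.1). One lay at 11.6% of 11298 IFN-γ-only regions (11 to 12.2) and at 17% of 6976 DMSO-only regions (16.1 to 17.9). Median widths were 595, 450 and 384 bp for curcuphenol, IFN-γ and DMSO, so this window ran past the ends of many regions. Within the regions themselves, 24%, 11.9% and 13.9% held a TRE in the same order. For the ISRE the order was another, with 6.47% of curcuphenol-only, 12.9% of IFN-γ-only and 11.2% of DMSO-only regions over the 500 bp. Within the regions themselves the ISRE shares were 10%, 12.3% and 10.7%. The classes differed in base composition, with median GC contents of 45.4%, 47.6% and 39.4% in the same order of curcuphenol, IFN-γ and DMSO, and the part of this in the shares was not tested. Regions are not replicates of a treatment, and each class rests on 1 library.

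Of the dimer partners, Batf2, a BATF protein that interferon induces in macrophages, had no region in its gene or upstream 1 kb with DMSO or curcuphenol and 2837 bp with IFN-γ, and was chosen after its values were seen. Jdp2, which lies between Fos and Batf and encodes a repressor of AP-1, held 3918 bp under DMSO, 6066 bp under curcuphenol and 6865 bp under IFN-γ.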
